A study of Mus musculus with 16 samples.

Results

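The genes that encode tight junction, desmosome and gap junction proteins were followed in mouse tracheal epithelial cell cultures (MTECs). Members were chosen by symbol among protein-coding genes and comprised the numbered claudin (Cldn), zonula occludens (Tjp), desmoglein (Dsg), desmocollin (Dsc), plakophilin (Pkp), connexin (Gja and Gjb), nectin (Nectin) and MARVEL domain (Marveld) genes, together with Ocln, F11r, Cgn, Dsp, Jup, Perp, Ctnna1, Ctnnb1 and Ctnnd1. The rule found 70 of the 49315 gene identifiers in the count table, and 44 of them had 10 or more counts in at least 2 of the 16 libraries and are described here. All 44 passed the filter on low counts and were among the 15993 genes tested. The 26 members that were not described included 15 claudins, 6 connexins and 5 desmosomal cadherins, never reached more than 9 counts in any library, and had 0 counts in all libraries for 5 of them.

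MTECs were primary epithelial cells, differentiated at an air-liquid interface, from female (F) and male (M) mice that were wild type (WT) or knocked out for Lman1 (KO), a gene that encodes a cargo receptor between the endoplasmic reticulum and the Golgi apparatus. The KO line was on a C57BL/6J background, its WT controls were littermates, tracheas were pooled to start the cultures, and the inserts had been coated with a basement membrane laid down by 3T3 fibroblasts. Cultures were left naive or received house dust mite extract (HDM), a common aeroallergen source, at 20 µg/ml overnight. Sex, genotype and treatment gave 8 groups of 2 libraries each: F WT naive, F WT HDM, F KO naive, F KO HDM, M WT naive, M WT HDM, M KO naive and M KO HDM. The labels describe the libraries of a group as biological replicates and give no age.

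An epithelial sheet is sealed near its apical surface by tight junctions, in which claudins form the strands that set which ions and solutes pass between cells. Occludin and related MARVEL proteins such as tricellulin join these strands, and cytoplasmic plaque proteins of the zonula occludens family and cingulin tie them to actin. Below them, nectins and catenins serve the adherens junction, desmosomal cadherins and plaque proteins anchor keratin filaments, and connexins form gap junction channels that pass small molecules from cell to cell. In airway epithelium these contacts form the barrier that inhaled allergens meet first.

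Library totals ran from 21860698 to 43442188 counts. Lman1 itself was between 101 and 144 CPM (counts scaled by library size) in the 8 WT libraries and at 12.8 CPM in both F KO naive libraries. It was at 14.2 CPM in M KO naive 1 but at 63.4 CPM in M KO naive 2, and between 65.0 and 78.1 CPM in all 4 libraries labelled KO HDM, so the level went against the label in 5 of the 8 libraries labelled KO. For this reason the KO groups are called by their label throughout. Among epithelial markers, the basal gene Krt5 ranged from 628 to 5870 CPM. Krt15 reached 3630 and Krt14 3600 CPM, and no other basal marker exceeded 1240 CPM. Of the ciliated markers, Foxj1 stayed between 44.8 and 97.5 CPM, whereas Dnah5 was between 1.43 and 11.4 CPM and Dnah9 did not exceed 4.38 CPM. The club cell gene Scgb1a1 did not exceed 3.75 CPM, whereas the sum of 10 secretory markers was between 7106 and 27870 CPM. That sum rests mostly on Cyp2f2, at 3750 to 18900 CPM, with Reg3g at 46.6 to 6880 and Krt8 at 672 to 3270. Summed CPM of 10 fibroblast markers was 671 and 688 in F WT naive 2 and F WT HDM 2, against 35.6 and 53.9 in F WT naive 1 and F WT HDM 1. The sum lay between 79.2 and 129 in the female libraries labelled KO and between 4.51 and 190 in male libraries. The endothelial sum was at most 2.87 CPM, the T cell gene Cd3e had at most 1 count in any library, and the sum of 8 leukocyte markers was between 90.03 and 288 CPM. The highest leukocyte marker was Lyz2, at 62.2 to 238 CPM.

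The promoters of Cldn6, Cldn1 and Cldn4, the claudins that rose with HDM in F WT cultures, and of Gjb2 and Tjp3, the members that fell there with the smallest p, are shown first, as the responses of these genes carry most of what follows. Promoter sequences came from RefSeq (build GRCm38.p6), which matched 28 of the 44 members. Each window ends at the base before the most upstream annotated start and was cut to the bases before both the RefSeq and the GENCODE gene start. The windows are chr17:23679115-23679248 on the plus strand for Cldn6, chr16:26371842-26372089 on the minus strand for Cldn1, chr5:134946935-134947184 on the minus strand for Cldn4, chr14:57104703-57104952 on the minus strand for Gjb2 and chr10:81291582-81291831 on the minus strand for Tjp3. They are written 5′ to 3′ along the gene, with motif matches in capitals.
Cldn6: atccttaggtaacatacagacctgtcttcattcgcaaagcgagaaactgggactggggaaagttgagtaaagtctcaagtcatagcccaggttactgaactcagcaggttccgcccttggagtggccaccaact
Cldn1: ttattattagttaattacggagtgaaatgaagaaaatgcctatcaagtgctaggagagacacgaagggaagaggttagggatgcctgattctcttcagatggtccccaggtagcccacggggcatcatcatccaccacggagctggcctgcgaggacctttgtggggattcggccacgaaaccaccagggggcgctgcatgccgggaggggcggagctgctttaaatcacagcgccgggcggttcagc
Cldn4: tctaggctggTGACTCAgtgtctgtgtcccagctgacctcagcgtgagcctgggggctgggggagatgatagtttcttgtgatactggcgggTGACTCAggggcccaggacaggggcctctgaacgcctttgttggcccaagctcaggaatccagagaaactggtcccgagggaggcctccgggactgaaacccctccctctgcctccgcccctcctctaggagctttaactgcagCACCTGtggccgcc
Gjb2: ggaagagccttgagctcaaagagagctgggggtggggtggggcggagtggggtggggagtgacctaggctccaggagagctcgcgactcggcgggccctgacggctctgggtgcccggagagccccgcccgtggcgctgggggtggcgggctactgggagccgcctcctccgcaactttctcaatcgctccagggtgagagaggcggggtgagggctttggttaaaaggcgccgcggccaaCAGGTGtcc
Tjp3: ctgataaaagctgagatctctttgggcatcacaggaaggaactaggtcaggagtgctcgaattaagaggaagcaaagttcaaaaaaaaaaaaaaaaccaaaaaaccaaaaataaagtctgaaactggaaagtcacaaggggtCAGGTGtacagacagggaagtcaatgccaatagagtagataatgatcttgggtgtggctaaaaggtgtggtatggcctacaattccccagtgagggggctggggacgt

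The motifs searched on both strands were AACCGGTT for Grainyhead-like factors, TGANTCA for AP-1 and CAGGTG for the SNAI and ZEB family. Cldn4 held TGACTCA at 240 and 158 bases before its start, and CACCTG, which is CAGGTG on the other strand, at 14 bases. Gjb2 held CAGGTG at 9 bases before the start and Tjp3 held it at 108 bases, and the printed windows of Cldn6 and Cldn1 held no match. Over the 250 bases before the RefSeq start, AP-1 letters were found in 3 of the 28 members (Cldn4, F11r and Gja1), against 7.82% of all 27025 genes with a promoter. CAGGTG was found in 10 of the 28, against 19.4% of these genes. The 10 members were Cldn4, Cldn6 (at a place that is transcribed in the GENCODE annotation), Cldn7, F11r, Gjb1, Gjb2, Nectin2, Ocln, Pkp4 and Tjp3. The Grainyhead-like letters were found in none of the 28 members and in 0.137% of all genes with a promoter. A match describes letters in the window and was not tied to any binding here.

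Levels between genes were compared as CPM per kilobase of exon (RPKM). Averaged over the 16 libraries, the highest members were Cldn4 at 379 RPKM, the beta-catenin gene Ctnnb1 at 344, Cldn3 at 237 and Perp, a tetraspan desmosomal protein gene, at 220. Cldn7 (130 RPKM), Ctnna1 (120), the plakoglobin gene Jup (109) and the JAM-A gene F11r (107) followed. Within the plaque groups, the highest after Jup was the desmoplakin gene Dsp at 76.3 RPKM, and Tjp3 (48.3) led the tight junction plaque. Dsc2 (45.7) and Dsg3 (12.0) led the desmosomal cadherins, Nectin2 (40.3) and Nectin1 (28.3) the nectins, and Gja1 (28.1) the connexins. F11r and Ocln (23.5) led the group of occludin, MARVEL and JAM-A genes. At the other end, Gjb6, Gjb1, Cldn10, Gjb5 and Dsc3 each averaged less than 1 RPKM, and Cldn10 had as few as 2 counts and Gjb1 0 counts in a library.

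The range over libraries differed between members. F11r stayed between 277 and 302 CPM in all 16 libraries. Cldn12 ranged from 35.6 to 55.3 CPM and Dsg2 from 40.0 to 64.4 CPM. Cldn6 had the widest span among members above 1 RPKM, from 4.03 CPM in M KO HDM 2 to 310 CPM in F WT HDM 2.

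The first comparison asked how WT female cultures responded to HDM. Of the 44 members, 21 passed an adjusted p under 0.05 in the quasi-likelihood test of edgeR, adjusted by Benjamini-Hochberg over all genes, which is 47.7% of members, and 43.1% of all tested genes passed. There were 12 members that rose (27.3%, against 20.6% of all genes) and 9 that fell (20.5%, against 22.4%). The median log2 fold change of the members was -0.18 and that of all genes -0.02. The share called in either direction lay near that of all genes. The members did not move as a block. The rises were led by Cldn6, Cldn1 and Cldn4, and the falls by Gjb2, Cldn8, Dsc2 and Tjp3.

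**Figure D1:**
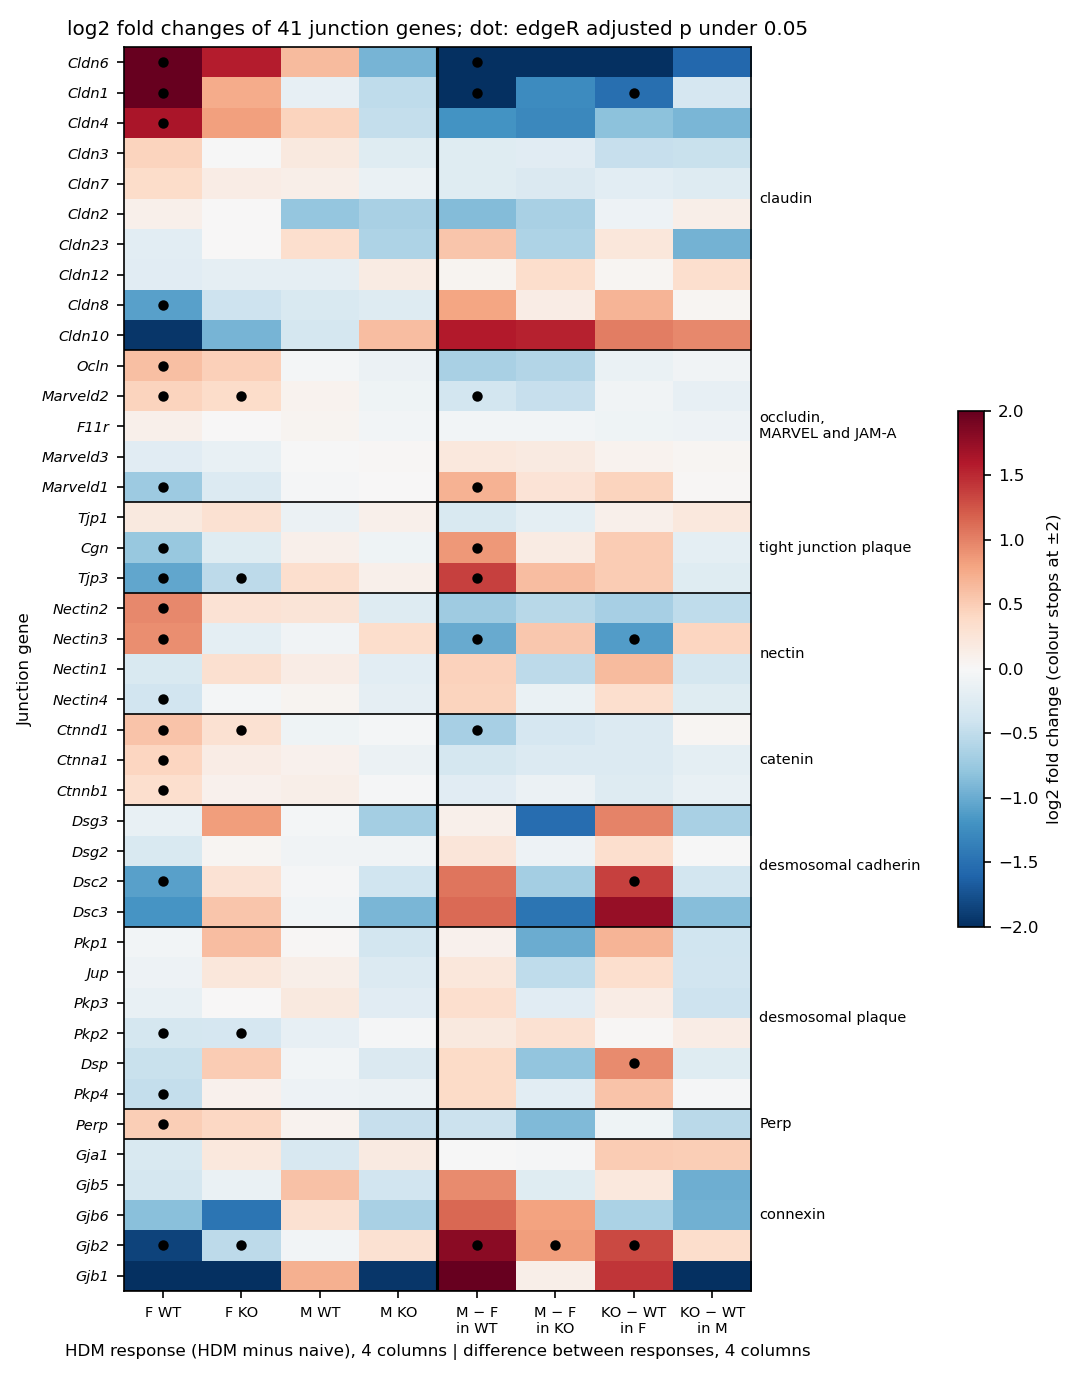
log2 fold changes of 41 of the 44 described members (rows, by role) in 4 HDM responses and in the 4 differences between responses (columns), on a colour scale that stops at ±2; a dot marks an edgeR adjusted p under 0.05. The F WT column holds 20 dots, the column of female cultures labelled KO 5, and both male columns 0.

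Of 10 claudins, 3 rose, 1 fell and 6 did not pass the test in F WT cultures. Of all genes, 20.6% rose and 22.4% fell. Cldn6 (ENSMUSG00000023906, chromosome 17, 23679249 to 23682446), a claudin best known from embryonic epithelia, was at 9.59 and 22.8 CPM in the naive libraries and at 269 and 310 CPM after HDM. Both HDM libraries lay above both naive libraries, a log2 fold change of 4.14 (SE 0.71, edgeR adjusted p = 0.000713), or 17.6-fold. Cldn1, a barrier-sealing claudin, was at 3.38 and 6.09 CPM in naive and at 18.1 and 27.2 CPM in HDM libraries (log2 fold change 2.24, SE 0.31, edgeR adjusted p = 0.000183). Cldn4, the most abundant claudin here, was at 418 and 534 CPM in naive and at 1403 and 1536 CPM in HDM libraries (log2 fold change 1.63, SE 0.34, edgeR adjusted p = 0.0025). The naive and HDM libraries did not overlap for any of the 3, as for 38 of the 44 members. The share over all genes was not computed.

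Cldn8 moved the other way. This sealing claudin was at 27.9 and 24.3 CPM in naive and at 14.2 and 10.2 CPM in HDM libraries, a log2 fold change of -1.09 (SE 0.20, edgeR adjusted p = 0.000959). Cldn3, which lies 39.3 kb from Cldn4 on chromosome 5, had a log2 fold change of 0.44 (SE 0.19) and Cldn7 of 0.37 (SE 0.15), and neither passed the test (edgeR adjusted p = 0.0765 and 0.0687). Cldn2, Cldn12 and Cldn23 had log2 fold changes between -0.22 and 0.10, and the low Cldn10 had 27 and 27 counts in naive against 5 and 4 in HDM libraries (edgeR adjusted p = 0.121).

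The make-up of claudin mRNA therefore differed between the F WT groups. As shares of summed claudin RPKM, Cldn6 made up 0.881% and 1.90% in the naive libraries and 10.7% and 11.9% in the HDM libraries. Cldn4 went from 36.4% and 42.3% to 53.0% and 56.0%. Cldn3 made up 38.1% and 33.1% in naive and 23.1% and 20.1% in HDM libraries, with no called fall of its own. Summed claudin RPKM was 633 and 696 in naive and 1458 and 1511 in HDM libraries. In such bulk samples, more cells of a type and more RNA per cell cannot be told apart, and likewise fewer cells and less RNA.

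**Figure D2:**
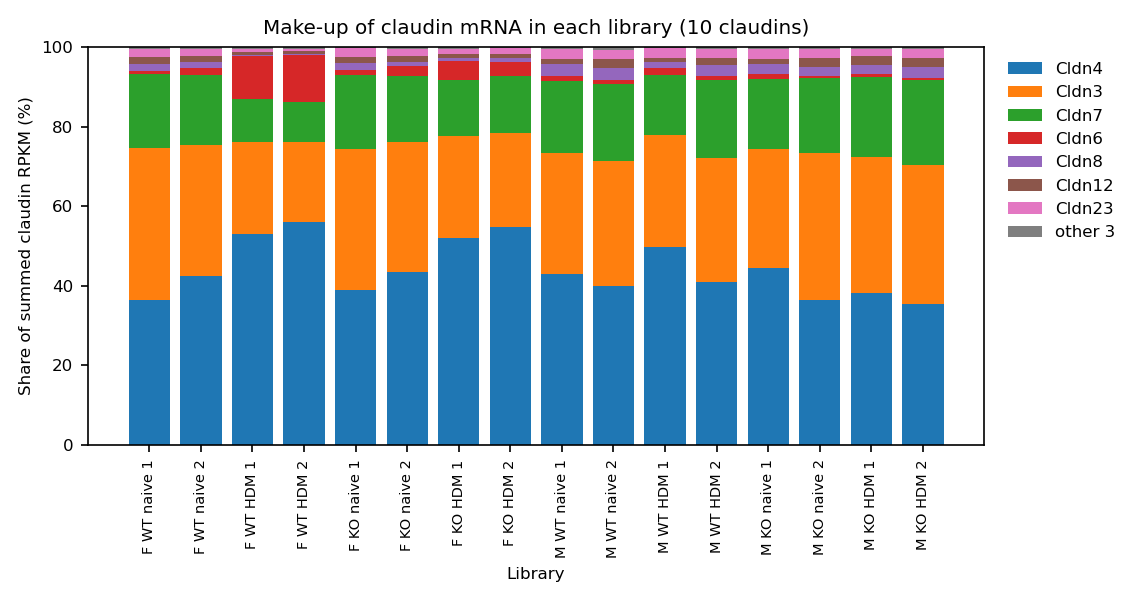
Share (%) of summed claudin RPKM taken by each claudin in the 16 libraries (bars, stacked to 100); the 3 claudins of lowest level, Cldn1, Cldn2 and Cldn10, are drawn as one segment. Cldn6 takes 10.7% and 11.9% in the F WT HDM libraries and between 0.430% and 4.81% in the other 14.

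Occludin (Ocln) was at 85.7 and 86.3 CPM in naive and at 143 and 119 CPM in HDM libraries (log2 fold change 0.61, SE 0.16, edgeR adjusted p = 0.00957). Tricellulin (Marveld2), which sits where 3 cells meet and whose gene lies 43.2 kb from Ocln on chromosome 13, was at 35.9 and 38.1 CPM in naive and at 52.7 and 48.0 CPM in HDM libraries (log2 fold change 0.44, SE 0.09, edgeR adjusted p = 0.00152). Marveld1, another MARVEL domain gene, was at 98.7 and 83.5 CPM in naive and at 58.0 and 52.5 CPM in HDM libraries (log2 fold change -0.72, SE 0.11, edgeR adjusted p = 0.000393). Thus 2 of the 5 members in the group of occludin, MARVEL and JAM-A genes rose and 1 fell, and F11r and Marveld3 did not pass the test. Of all genes, 20.6% rose and 22.4% fell. Without F WT naive 1 or without F WT HDM 1, Ocln did not pass the test (edgeR adjusted p = 0.0552 and 0.0782).

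Tjp3 (ZO-3) was at 189 and 176 CPM in naive and at 99.6 and 78.8 CPM in HDM libraries, a log2 fold change of -1.03 (SE 0.12, edgeR adjusted p = 4.47e-05). Cingulin (Cgn), which links the plaque to myosin and actin, was at 131 and 121 CPM in naive and at 79.6 and 69.0 CPM in HDM libraries (log2 fold change -0.76, SE 0.15, edgeR adjusted p = 0.00225). Both fell with no overlap between groups, and 38 of the 44 members had no overlap in this comparison. Tjp1 (ZO-1), at 216 and 200 CPM in naive and at 245 and 233 CPM in HDM libraries, had a log2 fold change of 0.20 and did not pass the test (edgeR adjusted p = 0.111).

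Nectin2 was at 120 and 116 CPM in naive and at 235 and 225 CPM in HDM libraries (log2 fold change 0.96, SE 0.19, edgeR adjusted p = 0.00174). Nectin3, its binding partner across the cell border, was at 32.6 and 24.9 CPM in naive and at 45.5 and 63.9 CPM in HDM libraries (log2 fold change 0.93, SE 0.17, edgeR adjusted p = 0.00115). Nectin4 was at 43.2 and 50.01 CPM in naive and at 38.7 and 32.7 CPM in HDM libraries and fell by 0.39 on the log2 scale (edgeR adjusted p = 0.0247). The call on Nectin4 was lost without F WT naive 2 (edgeR adjusted p = 0.166) and without F WT HDM 2 (0.188), and also with only the libraries labelled WT in the fit (0.0526). Nectin1 was at 137 and 147 CPM in naive and at 137 and 92.6 CPM in HDM libraries and did not pass the test.

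All 3 catenins rose, in a comparison where 20.6% of all genes rose. The p120 catenin gene Ctnnd1, which steadies cadherins at the membrane, was at 133 and 137 CPM in naive and at 206 and 197 CPM in HDM libraries (log2 fold change 0.58, SE 0.06, edgeR adjusted p = 3.36e-05). Ctnnb1, the transcriptional partner of Wnt signalling and link of cadherins to actin, was at 1682 and 1681 CPM in naive and at 2151 and 2116 CPM in HDM libraries, and Ctnna1, the actin-binding alpha-catenin, at 705 and 713 CPM and at 945 and 962 CPM. Ctnna1 and Ctnnb1 had smaller changes of 0.43 (SE 0.11) and 0.34 (SE 0.10), with edgeR adjusted p of 0.00767 and 0.0184. Perp was at 351 and 421 CPM in naive and at 565 and 519 CPM in HDM libraries and rose by 0.49 on the log2 scale (SE 0.17, edgeR adjusted p = 0.0326).

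**Figure D3:**
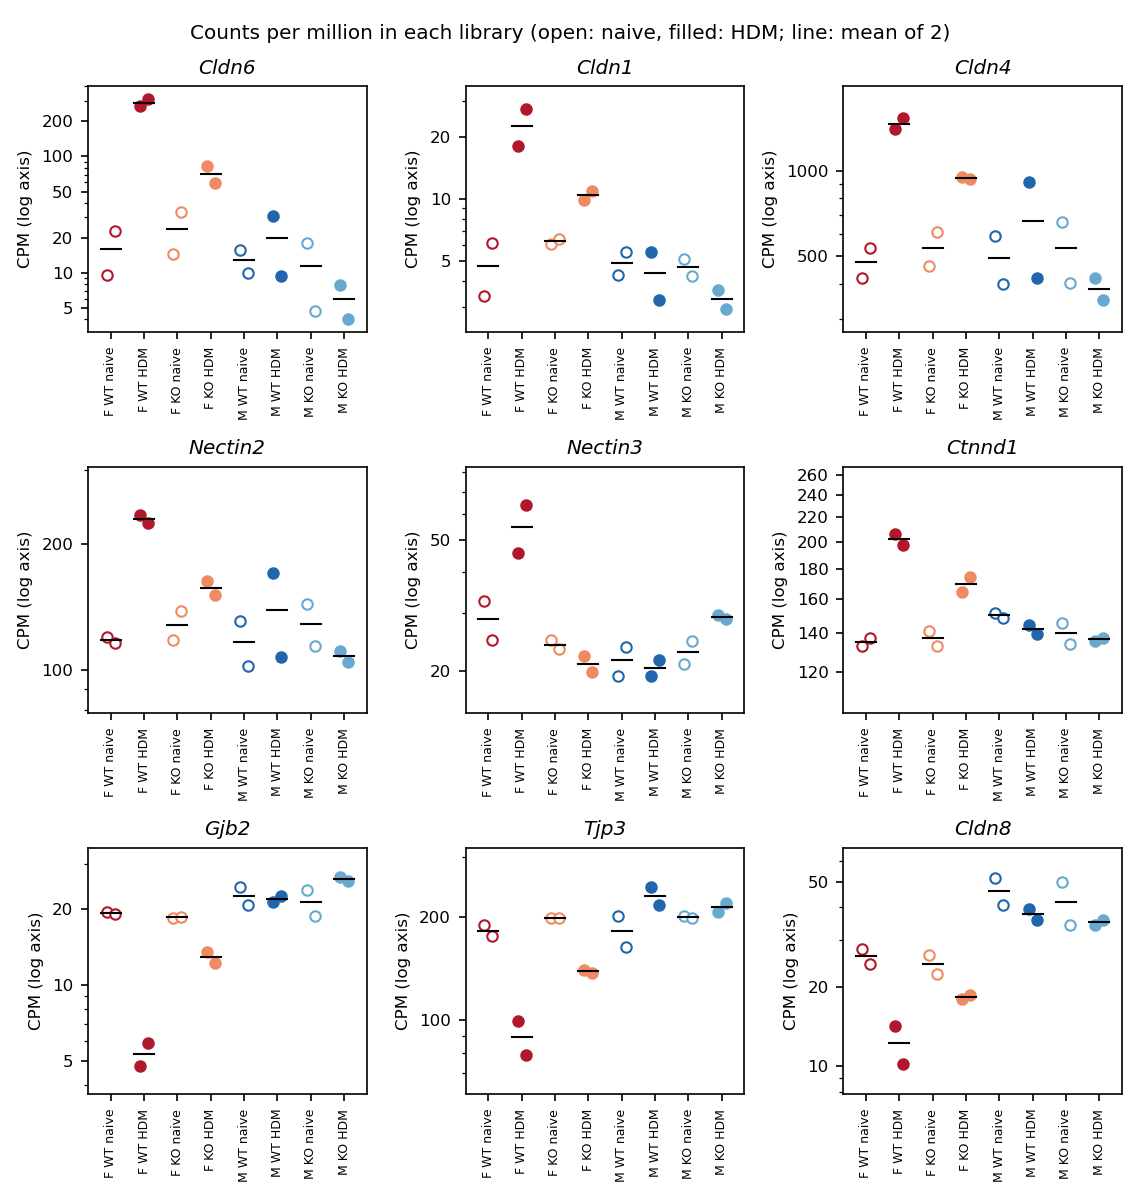
CPM (log axis) of 9 members in the 16 libraries (open points naive, filled points HDM, line the mean of 2). In F WT, HDM and naive points lie apart in all 9 panels, as for 38 of the 44 members. Cldn6 is at 269 and 310 against 9.59 and 22.8 CPM there, and the male points of Gjb2 stay between 18.7 and 26.8 CPM.

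No desmosomal cadherin or plaque gene rose in F WT cultures, whereas 1 of 4 cadherins and 2 of 6 plaque genes fell. Of all genes, 20.6% rose and 22.4% fell. Dsc2 was at 212 and 246 CPM in naive and at 148 and 67.4 CPM in HDM libraries (log2 fold change -1.08, SE 0.28, edgeR adjusted p = 0.00835). The plakophilins Pkp4 and Pkp2 had log2 fold changes of -0.48 (SE 0.13) and -0.36 (SE 0.08), with edgeR adjusted p of 0.0113 and 0.00497. Pkp2 was at 72.9 and 66.1 CPM in naive and at 52.8 and 55.8 CPM in HDM libraries, and Pkp4 was at 343 and 304 CPM in naive and at 260 and 203 CPM in HDM libraries.

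The F WT HDM libraries differed from each other for this group. Dsg3 was at 94.7 CPM in F WT HDM 1 and at 39.2 CPM in F WT HDM 2, against 64.7 and 84.2 CPM in naive libraries. Dsp was at 690 and 424 CPM in HDM against 717 and 793 CPM in naive libraries, and did not pass the test (edgeR adjusted p = 0.0574). F WT HDM 2 was the lower library for Dsc2, Dsc3, Dsg2, Dsg3, Dsp, Jup, Pkp1, Pkp3 and Pkp4. The same library had a summed CPM of 10 basal cell markers of 2992, against 5171 in F WT HDM 1 and 11190 and 12170 in naive libraries, and the part of that difference in the desmosomal values was not tested. Without F WT HDM 2 the call on Pkp4 was lost (edgeR adjusted p = 0.117), as it was without F WT naive 1 (0.087) or with only the libraries labelled WT (0.0519). Dsc2 kept its call without either library, but had an edgeR adjusted p of 0.126 when F WT naive 2 and F WT HDM 2, the libraries with more fibroblast RNA, were both left out. Each F WT group then held 1 library, which was assumed to vary like those of the other groups.

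**Figure D4:**
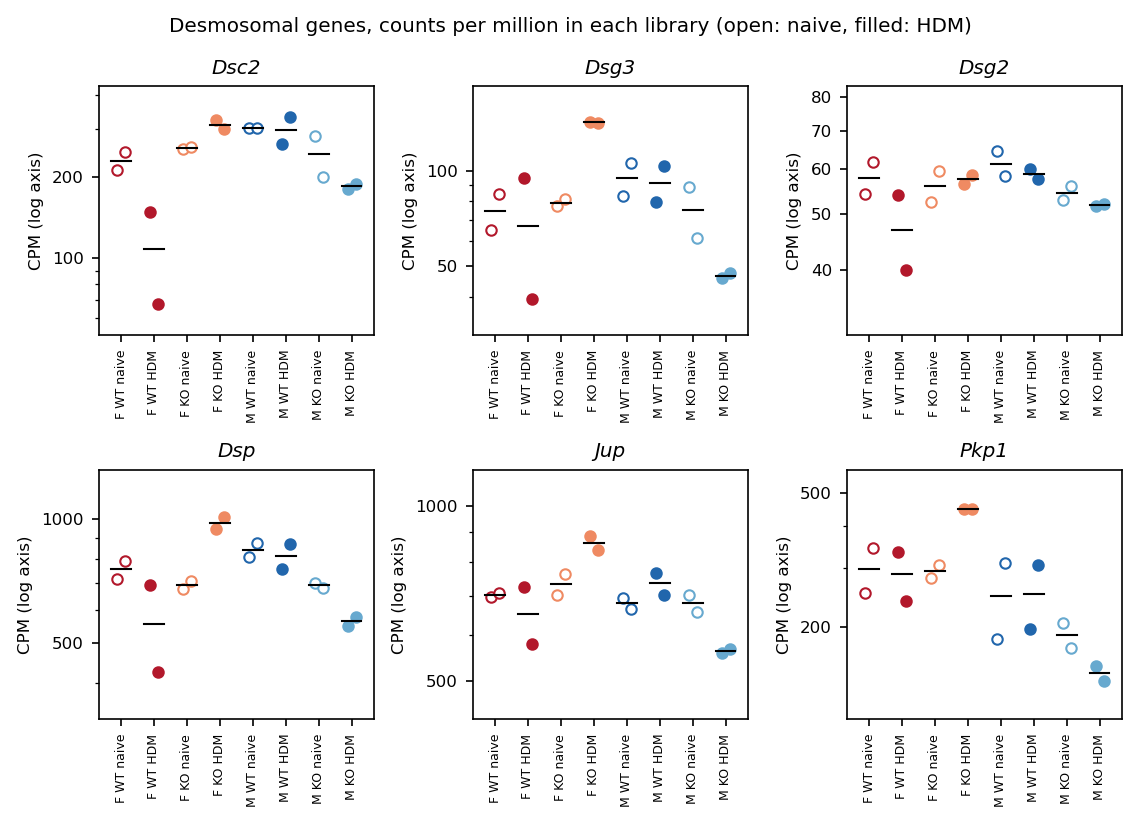
CPM (log axis) of 6 desmosomal genes in the 16 libraries (open points naive, filled points HDM, line the mean of 2). F WT HDM 1 and 2 lie far apart for Dsc2 (148 and 67.4 CPM) and Dsg3 (94.7 and 39.2 CPM), and the F KO HDM points are the highest of all for Dsg3, Dsp, Jup and Pkp1.

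Gjb2 (connexin 26) was at 19.4 and 19.0 CPM in naive and at 4.79 and 5.87 CPM in HDM libraries, from 533 and 847 counts in naive and 115 and 124 counts in HDM libraries. This was the member with the smallest p in the comparison (log2 fold change -1.85, SE 0.14, edgeR adjusted p = 2.85e-06), a 3.61-fold fall. The libraries did not overlap, as for 38 of the 44 members. Gjb6, 18.6 kb from Gjb2 on chromosome 14, had a log2 fold change of -0.83 (SE 0.52) and did not pass the test (edgeR adjusted p = 0.218).

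Gja1 (connexin 43), the connexin of highest mean RPKM, was at 333 and 359 CPM in naive and at 287 and 274 CPM in HDM libraries and did not pass the test (edgeR adjusted p = 0.407). Gjb1 had 5 and 17 counts in naive and 0 and 1 count in HDM libraries, too few for a fold.

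In female cultures labelled KO, the HDM response held 5 called members (11.4% of members, against 10.4% of all genes). Lman1 itself was at 12.8 CPM in both naive libraries of this comparison and at 66.6 and 78.1 CPM in its HDM libraries. Effects of HDM and of this difference in Lman1 cannot be told apart here. Marveld2 and Ctnnd1 rose (4.55%, against 4.63% of all genes), and Gjb2, Tjp3 and Pkp2 fell (6.82%, against 5.77%). All 5 were also called in F WT cultures, in the same direction. In F WT cultures 43.1% of all genes were called, and the share of all genes called in both was not computed. Gjb2 was at 18.5 and 18.6 CPM in naive and at 13.5 and 12.1 CPM in HDM libraries (log2 fold change -0.53, SE 0.13, edgeR adjusted p = 0.0279). Tjp3 was at 198 and 199 CPM in naive and at 140 and 137 CPM in HDM libraries (log2 fold change -0.52, SE 0.12, edgeR adjusted p = 0.0168).

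The other 3 calls were of similar or smaller size. Pkp2 had a log2 fold change of -0.33 (SE 0.08, edgeR adjusted p = 0.0271), from 66.5 and 60.9 CPM to 49.4 and 51.8 CPM. Marveld2 rose by 0.37 (SE 0.09, edgeR adjusted p = 0.0185), from 36.7 and 38.2 CPM to 47.9 and 48.9 CPM. Ctnnd1 rose by 0.30 (SE 0.06, edgeR adjusted p = 0.0116), from 141 and 133 CPM to 164 and 174 CPM. The count of calls rested on every library: it was 0 without F KO naive 1, F KO naive 2 or F KO HDM 2, and 1 without F KO HDM 1, with edgeR adjusted p for these 5 genes of up to 0.211. It was 10 with DESeq2 and 17 when only the 4 compared libraries were fitted.

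The claudins that led the F WT response had the same sign in these cultures without passing the test. Cldn6 was at 14.5 and 33.4 CPM in naive and at 83.1 and 59.5 CPM in HDM libraries (log2 fold change 1.58, SE 0.65, edgeR adjusted p = 0.151). Cldn4 was at 462 and 610 CPM in naive and at 949 and 934 CPM in HDM libraries (log2 fold change 0.81, edgeR adjusted p = 0.148), and Cldn1 had a log2 fold change of 0.74 (edgeR adjusted p = 0.151). For all 3 the HDM libraries lay above the naive ones, in a comparison where 35 of the 44 members had no overlap.

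Of the desmosomal genes, Pkp2 fell as given above, and Dsg3, Dsp and Pkp1 had positive values that did not pass the test. Dsg3 was at 77.3 and 81.2 CPM in naive and at 143 and 142 CPM in HDM libraries (log2 fold change 0.84, SE 0.31, edgeR adjusted p = 0.115). Dsp was at 677 and 705 CPM in naive and at 948 and 1013 CPM in HDM libraries (log2 fold change 0.50, edgeR adjusted p = 0.087), and Pkp1 had a log2 fold change of 0.62 (edgeR adjusted p = 0.159). Naive and HDM libraries did not overlap for any of these 3, as for 35 of the 44 members in this comparison. Summed CPM of basal markers was 11560 and 12930 in naive and 14780 and 11930 in HDM libraries of this label.

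In male cultures no member passed the edgeR test after HDM, in WT or in those labelled KO, and neither did any of the 15993 genes (0%). In M WT, 2 members had an unadjusted p under 0.05, Tjp3 (log2 fold change 0.34, SE 0.12) and Pkp3 (0.19, SE 0.08). In cultures labelled M KO, 5 had, namely Perp (-0.47), Gjb1 (-1.94), Gjb2 (0.31), Jup (-0.28) and Pkp3 (-0.23). Over all genes, 665 and 857 had such a p. DESeq2 called 0 members in both comparisons, and edgeR without a filter on low counts called 2 in M WT and 11 in those labelled M KO.

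The spread between libraries of a male group was wide for several members. Cldn4 was at 588 and 398 CPM in M WT naive and at 915 and 420 CPM in M WT HDM libraries, so the groups overlapped. Cldn6 was at 15.7 and 10.0 CPM in M WT naive and at 30.7 and 9.36 CPM in M WT HDM libraries. Gja1 was at 201 and 337 CPM in M WT naive and at 152 and 281 CPM in M WT HDM libraries. In each case the library numbered 1 stood apart from the library numbered 2 in the same direction in naive and HDM cultures. Gjb2, by contrast, stayed between 20.6 and 24.5 CPM in all 4 M WT libraries. M KO naive 1 and 2 also differed, with Cldn6 at 18.2 and 4.75 CPM and Dsc2 at 284 and 199 CPM, and these are the same 2 libraries whose Lman1 level differed. A link between these differences was not tested.

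Sex was compared next, as male minus female within a genotype and treatment. In naive cultures no member passed the edgeR test in WT (0.100% of all genes passed) or in those labelled KO (0.188%). An unadjusted p under 0.05 was reached by 6 members in WT and by 4 in those labelled KO, and by 1969 and 1585 of all 15993 genes. Without a filter on low counts edgeR called 6 and 5 members. Cldn8 had the smallest p of the members in both. It was at 27.9 and 24.3 CPM in F WT naive and at 51.7 and 40.9 CPM in M WT naive libraries (log2 difference 0.83, SE 0.19, edgeR adjusted p = 0.164), and at 26.4 and 22.3 against 49.8 and 34.5 CPM in naive libraries labelled KO (0.79, SE 0.19, edgeR adjusted p = 0.161). DESeq2 called Cldn8 in both (adjusted p = 0.00583 and 0.01) and also Cldn10 in cultures labelled KO (adjusted p = 0.0323).

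After HDM, 25 members differed between the sexes in WT (56.8%, against 41.6% of all genes). There were 16 higher in males (36.4%, against 21.3%) and 9 lower (20.5%, against 20.3%). The comparison shares the F WT HDM libraries with the F WT response, so both carry the values of those libraries. The members higher in males included Gjb1 and Gjb2, both Dsc genes, 3 desmosomal plaque genes, Cgn and Tjp3, Nectin1 and Nectin4, Marveld1 and Marveld3, and Cldn8 and Cldn23. Those lower in males included Cldn1, Cldn4, Cldn6, Nectin2, Nectin3, Ctnnd1, Marveld2 and Ocln.

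Gjb1, a connexin with 0 and 1 count in F WT HDM and 56 and 56 counts in M WT HDM libraries, was among the higher ones, with too few female counts for a fold. The next largest differences were in Cldn6 and Cldn1. Cldn6 was at 30.7 and 9.36 CPM in M WT HDM against 269 and 310 CPM in F WT HDM libraries (log2 difference -3.85, SE 0.70, edgeR adjusted p = 0.0011). Cldn1 was at 5.51 and 3.21 CPM against 18.1 and 27.2 CPM (log2 difference -2.38, SE 0.32, edgeR adjusted p = 0.000137). Gjb2 was at 21.2 and 22.4 CPM against 4.79 and 5.87 CPM (log2 difference 2.03, SE 0.14, edgeR adjusted p = 1.66e-06). None of these overlapped between the sexes, and 35 of the 44 members had no overlap in this comparison.

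Dsc3, Cldn8, Dsc2 and Nectin3 also differed by more than 1 on the log2 scale. Dsc3 was at 4.57 and 9.05 CPM in male against 2.00 and 0.995 CPM in female libraries (log2 difference 2.17, edgeR adjusted p = 0.00419). Dsc2 was at 263 and 333 CPM against 148 and 67.4 CPM (1.46, edgeR adjusted p = 0.00154), and Cldn8 at 39.4 and 35.9 CPM against 14.2 and 10.2 CPM (1.62, edgeR adjusted p = 7.04e-05). Nectin3 was lower in males, at 19.4 and 21.5 CPM against 45.5 and 63.9 CPM (-1.42, edgeR adjusted p = 7.77e-05). Cldn4 was also lower (-1.14, edgeR adjusted p = 0.0175), but lost its call without F WT HDM 2 (0.079) or M WT HDM 2 (0.115), at a difference of -0.68 in the latter. With only the compared libraries, 13 members were called.

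Among HDM cultures labelled KO, 22 members differed between the sexes (50%, against 25.3% of all genes), 8 higher in males (18.2%, against 12.9%) and 14 lower (31.8%, against 12.4%). Cldn1, Cldn4 and Cldn6 were lower and Cldn8, Gjb2, Tjp3, Pkp2, Marveld1 and Marveld3 higher in males, as in WT. Dsp and Nectin1 were called in the direction opposite to WT. Dsp had a log2 difference of 0.55 in WT (edgeR adjusted p = 0.0236) and of -0.80 here (0.00627). Nectin1 had a log2 difference of 0.70 in WT (edgeR adjusted p = 0.00176) and of -0.54 here (0.0129). Cldn6 was at 7.88 and 4.03 CPM in male against 83.1 and 59.5 CPM in female libraries (log2 difference -3.58, SE 0.74, edgeR adjusted p = 0.00472). Without M KO HDM 2 its edgeR adjusted p was 0.0616. Cldn1 was at 3.60 and 2.93 CPM against 9.93 and 10.9 CPM (-1.67, SE 0.32, edgeR adjusted p = 0.00312). Of the members higher in males, Gjb2 was at 26.8 and 25.8 CPM against 13.5 and 12.1 CPM (1.03, SE 0.13, edgeR adjusted p = 0.000336), and Tjp3 at 207 and 220 CPM against 140 and 137 CPM (0.62, SE 0.12, edgeR adjusted p = 0.00273).

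Of the desmosomal genes, 1 of 4 cadherins and 4 of 6 plaque genes were lower in males, and Pkp2 was higher. Of all genes, 12.4% were lower and 12.9% higher. Pkp1, an epidermal plakophilin, was at 154 and 139 CPM in male against 449 and 448 CPM in female libraries (log2 difference -1.61, SE 0.26, edgeR adjusted p = 0.00132). Dsg3 was at 45.8 and 47.4 CPM against 143 and 142 CPM (-1.61, SE 0.32, edgeR adjusted p = 0.00407). Dsp, Jup, Pkp3 and Perp were also lower in males, with log2 differences of -0.80, -0.62, -0.36 and -0.93. Cldn10 was higher in males, with 78 and 144 counts against 2 and 7 (edgeR adjusted p = 0.00419). Summed CPM of 10 squamous markers was 208 and 220 in these male libraries and 1381 and 1068 in the female libraries. That of basal markers was 8156 and 8294 against 14780 and 11930, and the part of these sums in the desmosomal values was not tested. The squamous sum rests on few genes: over the 16 libraries Krt6a reached 1090 CPM, Krt13 208 and Sprr2a3 93.7, and no other squamous marker exceeded 15.7 CPM. When only the compared libraries were fitted, 34 members were called.

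The genotype comparison was KO-labelled minus WT within a sex and treatment. In naive cultures no member passed in either sex, nor did any gene (0%). By unadjusted p under 0.05 there were 0 members in females and 2 in males, Cldn2 (log2 difference -0.83) and Tjp1 (-0.21), among 203 and 867 genes in all. DESeq2 called 0 members in both, and edgeR without a filter on low counts called 1 in females. The naive female groups, where Lman1 differed as labelled, had no called junction gene with the filter, and the median absolute log2 difference of the members was 0.08.

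After HDM, 18 members differed between female cultures labelled KO and WT (40.9%, against 29.2% of all genes), with 13 higher (29.5%, against 14.9%) and 5 lower (11.4%, against 14.3%). The Lman1 level was at 55.3% and 64.8% of the WT mean in these F KO HDM libraries. The higher members included 3 of 4 desmosomal cadherins and 3 of 6 desmosomal plaque genes. Dsc2 was at 323 and 299 CPM in F KO HDM against 148 and 67.4 CPM in F WT HDM libraries (log2 difference 1.53, SE 0.28, edgeR adjusted p = 0.00257). Dsc3 was at 7.02 and 4.98 CPM against 2.00 and 0.995 CPM (1.99, SE 0.49, edgeR adjusted p = 0.0113), and Dsg3 at 143 and 142 CPM against 94.7 and 39.2 CPM (1.08, SE 0.32, edgeR adjusted p = 0.0249). Gjb2 was at 13.5 and 12.1 CPM against 4.79 and 5.87 CPM (1.27, SE 0.14, edgeR adjusted p = 0.000167).

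The lower members were Cldn6, Nectin3, Cldn1, Nectin2 and Ctnnd1. Nectin3 was at 22.2 and 19.8 CPM against 45.5 and 63.9 CPM (log2 difference -1.38, SE 0.17, edgeR adjusted p = 0.000316). Cldn6 had a log2 difference of -2.02 (SE 0.64, edgeR adjusted p = 0.0346), Cldn1 of -1.12 (SE 0.30, 0.017) and Nectin2 of -0.55 (SE 0.19, 0.0469). Many of these calls rested on single libraries. The count was 7 without F WT HDM 2, 6 without F KO HDM 1 and 9 without F KO HDM 2, and the calls on Cldn6 and Nectin2 were lost in each of the 4 fits without a library. Dsg3 and Cldn1 each lost their call in 3 of these fits, all but that without F WT HDM 1, and Dsc3 in 2, without F WT HDM 2 or F KO HDM 1. Basal marker sums were 14780 and 11930 CPM in F KO HDM and 5171 and 2992 CPM in F WT HDM libraries, and the part of these in the desmosomal values was not tested.

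In HDM-treated males no member passed the edgeR test between labelled KO and WT, nor did any gene (0%), but 21 of 44 members had an unadjusted p under 0.05, of 2897 such genes in all. DESeq2 called 7 members, all lower in cultures labelled KO, among them Dsg3, Dsp, Jup, Pkp1 and Perp, and edgeR without a filter on low counts called 21, of which 18 were lower. Perp had the smallest p in edgeR, at 289 and 278 CPM in M KO HDM against 457 and 449 CPM in M WT HDM libraries (log2 difference -0.68, SE 0.17, edgeR adjusted p = 0.159). Dsg3 was at 45.8 and 47.4 CPM against 79.6 and 104 CPM (-0.98, SE 0.32, edgeR adjusted p = 0.186). The Lman1 level was between 53.9% and 54.8% of the WT mean in these M KO HDM libraries.

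The difference between the responses of the sexes was tested in WT as male minus female response. It was called for 9 members (20.5%, against 24.2% of all genes), 4 higher (9.09%, against 12.8%) and 5 lower (11.4%, against 11.3%). A positive value here means a larger rise, or a smaller fall, in males. Gjb2 had the smallest p, with a difference between responses of 1.80 on the log2 scale (SE 0.19, edgeR adjusted p = 9.27e-05), from -1.85 in females and -0.05 in males. Tjp3 differed by 1.37 (SE 0.16, edgeR adjusted p = 0.000194), from -1.03 in females and 0.34 in males. Marveld1 and Cgn were the other 2 with positive differences, 0.70 and 0.87.

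The negative differences were of Cldn6 (-3.50, SE 0.95, edgeR adjusted p = 0.02), Cldn1 (-2.41, SE 0.44, 0.00263), Nectin3 (-1.005, SE 0.24, 0.012), Ctnnd1 (-0.66, SE 0.09, 0.000446) and Marveld2 (-0.37, SE 0.12, 0.0448). Cldn4 did not pass this test (-1.19, SE 0.47, edgeR adjusted p = 0.0872), so its response was not shown to differ between the sexes. Without F WT HDM 1 the number of called members was 17 and without M WT HDM 1 it was 16, against 6 without F WT naive 1 or F WT HDM 2. The call on Nectin3 was lost without F WT HDM 2 (edgeR adjusted p = 0.0506), without M WT naive 2 (0.0509) or with only the libraries labelled WT (0.057).

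In cultures labelled KO the same test called 1 member, Gjb2 (2.27%, against 3.56% of all genes, with 1.77% higher and 1.79% lower). The female response in this test holds the difference in Lman1 between F KO naive and HDM libraries. For Gjb2 the female response was -0.53 and the male response 0.31. The difference between these was 0.84 (SE 0.19, edgeR adjusted p = 0.0342), and the call was lost in 7 of the 8 fits without a library, the exception being that without M KO naive 1. Without M KO naive 2, whose Lman1 went against its label, 4 members were called, all with negative differences. Dsg3 had a difference of -1.53 (SE 0.45, edgeR adjusted p = 0.0851) and Dsp of -0.80 (SE 0.24, edgeR adjusted p = 0.0976) with all libraries.

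Between genotypes, the female responses differed for 5 members (11.4%, against 11.2% of all genes), as KO-labelled minus WT response. In the KO-labelled response, HDM cannot be told apart from the difference in Lman1 between F KO naive and HDM libraries. Gjb2, Dsc2 and Dsp were higher (6.82%, against 6.16%) and Cldn1 and Nectin3 lower (4.55%, against 5.08%). Gjb2 differed by 1.32 (SE 0.19, edgeR adjusted p = 0.00244) and kept its call in all 8 fits without a library. Dsp differed by 0.94 (SE 0.24, edgeR adjusted p = 0.032) and Dsc2 by 1.37 (SE 0.39, 0.0439), and Nectin3 by -1.12 (SE 0.24, 0.0163) and Cldn1 by -1.50 (SE 0.43, 0.046). The calls on these 4 were each lost in 5 or more fits without a library, and the count of calls was then between 1 and 12, the highest without F WT HDM 1. Male responses did not differ between genotypes for any member in edgeR (0% of all genes), with 6 members and 1388 genes in all at an unadjusted p under 0.05. DESeq2 called 0 members, and edgeR without a filter on low counts called 9.

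The wider set of junction genes, 67 partners and regulators of which 59 were tested, had 22 rises and 16 falls in the F WT response, where 20.6% of all genes rose and 22.4% fell. Among polarity and scaffold genes 9 of 22 rose and 4 fell. Mpdz, a multi-PDZ scaffold that binds claudins, rose by 1.298 on the log2 scale (edgeR adjusted p = 6.69e-06), and Cgnl1, the paralogue of cingulin, by 0.92 (edgeR adjusted p = 0.000801), whereas Cgn fell. Among receptors, Epcam rose by 0.77 and the coxsackie and adenovirus receptor gene Cxadr fell by 0.78. In the tricellular partners of Marveld2, Lsr rose by 0.40 and Ildr1 fell by 0.64.

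Of 15 transcription factors known in epithelial differentiation or its loss, 8 fell and 2 rose in F WT, again against 22.4% and 20.6% of all genes. Trp63, a basal cell factor, fell by 2.06 on the log2 scale and Elf3 by 1.89, and Grhl2, a Grainyhead-like regulator of junction genes, fell by 0.89 (edgeR adjusted p = 3.71e-05). The rises were in Zeb1 (1.93, edgeR adjusted p = 0.0435) and Twist1 (3.08, edgeR adjusted p = 0.00182), both of which reached less than 10 CPM and are also expressed by fibroblasts. Grhl3, Klf4, Ovol2, Snai1 and Zeb2 did not pass the test. In female cultures labelled KO, 6 of the 59 rose and 3 fell, where 4.63% of all genes rose and 5.77% fell.

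Cell type markers are given beside the F WT response, in which 20.6% of all genes rose and 22.4% fell. Of 10 secretory markers 9 fell and 1, Krt8, rose, with summed CPM of 22560 and 17730 in naive and 7787 and 7106 in HDM libraries. Of 10 basal markers 5 fell, of 10 ciliated markers 4 fell, and of 7 squamous markers tested 2 rose and 2 fell. Of 10 fibroblast markers Dcn and Lum rose, and of 5 leukocyte markers tested 3 fell. The sum of 6 smooth muscle markers was 60.3 and 146 CPM in naive and 284 and 464 CPM in HDM libraries, but none of them passed the test. Acta2, which reached 441 CPM, had a log2 fold change of 1.98 (edgeR adjusted p = 0.0796). The next highest, Tagln, did not exceed 19.5 CPM in any library. In M WT cultures the secretory sum was 22050 and 19350 in naive and 18800 and 18970 in HDM libraries, and basal sums were between 9259 and 12080. The part of these markers in the junction values was not tested. For Cldn6 the libraries low in fibroblast markers, F WT naive 1 and F WT HDM 1, were at 9.59 and 269 CPM. Without F WT naive 2 and F WT HDM 2 together, which leaves 1 library a group and takes the spread from the other groups, 13 members were called in the F WT response, 8 higher and 5 lower, and Nectin3 (edgeR adjusted p = 0.0741) and Cgn (0.0503) were among those that lost their call.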

How the data were processed

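Gene counts of 16 mRNA libraries were analysed. Per the labels and the submitters' processing notes, the authors trimmed reads with Trimmomatic 0.36, aligned them to GRCm38 with STAR 2.5.2b, counted them per gene with featureCounts in Subread 1.5.2, and used DESeq2. The deposited values are raw counts. The strand setting of the counting is not given in the sources used here, so antisense partners cannot be told apart.

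Of 49315 identifiers, 49056 matched GENCODE M21 (GRCm38); the rest held 0.0106% of counts. Members and lists were chosen with earlier results of these data known. Counts were tested with edgeR 4.0.16 in R 4.3.3 (filterByExpr by group, TMM factors of 0.967 to 1.02, quasi-likelihood fit of 8 group means, 8 residual degrees of freedom, Benjamini-Hochberg adjustment over 15993 genes, threshold 0.05). SE is the absolute log2 fold change over the square root of F. CPM used effective library sizes, and RPKM divided them by union exon length. DESeq2 1.42.0 was the alternative tool. P-values rest on 2 libraries a group.

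In simulated counts for the F WT response over 15993 genes, edgeR called 12 of 50 genes planted at 1.5-fold, 30 of 50 at 2-fold, 35 of 50 at 4-fold and 5 of 15793 unchanged genes. The counts were drawn independently for each gene and few genes were changed, whereas 43.1% of all genes passed in the data. These shares therefore check that the fit runs as meant and do not carry over to the data. Members named with values by library were those of highest mean RPKM in each role and the called members of largest change or smallest p in each comparison; others were named after their values were seen. A few genes are counted among the members and lists but are not reported here by name. The protein motif search was not run, as no protein sequences were used here. Drawing used matplotlib 3.10.9.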

Additional observations from a re-analysis of the deposited data

Results flagged for a closer look

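Each value here is a difference between 2 HDM responses on the log2 scale that passed edgeR's quasi-likelihood test of the difference itself with Benjamini-Hochberg adjustment. In WT, the male response minus the female response was 1.80 for Gjb2 (adjusted p = 9.27e-05), 1.37 for Tjp3 (0.000194), 0.70 for Marveld1 (0.00829) and 0.87 for Cgn (0.0141). It was -2.41 for Cldn1 (0.00263), -3.50 for Cldn6 (0.02), -0.66 for Ctnnd1 (0.000446), -1.005 for Nectin3 (0.012) and -0.37 for Marveld2 (0.0448). In cultures labelled KO it was 0.84 for Gjb2 (0.0342).

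The response of female cultures labelled KO minus that of F WT cultures was 1.32 for Gjb2 (edgeR adjusted p = 0.00244), 1.37 for Dsc2 (0.0439), 0.94 for Dsp (0.032), -1.12 for Nectin3 (0.0163) and -1.50 for Cldn1 (0.046). All of these share the F WT or F KO libraries with the responses they compare. Lman1 differed between the naive and HDM libraries labelled F KO, which cannot be told apart from HDM there. Gjb2 was named in all 3 contrasts, and its level without HDM was between 18.5 and 24.5 CPM in the 8 naive libraries.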

How the results depend on the processing

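With 2 libraries a group, the counts of called members moved between alternatives. None of the 57 named values turned sign in any of them. These values were picked because they were called in the same counts, so a turn was unlikely beforehand and its absence says little about their directions. Without a filter on low counts, called members numbered 20 in the F KO-labelled response, 2 in M WT, 11 in M KO-labelled, 6 and 5 between naive sexes (WT, labelled KO), 1 and 21 between genotypes in naive females and HDM males, and 21, 17, 19 and 9 in the 4 differences between responses (sexes in WT, sexes in labelled KO, genotypes in females, genotypes in males). DESeq2 gave 10 in the F KO-labelled response, 1 and 2 between naive sexes, 7 between genotypes in HDM males, and 14, 9 and 9 in the first 3 differences between responses. With only the compared libraries, counts were 17 (F KO-labelled), 13 and 34 (HDM sexes, WT and labelled KO), and 8 and 9 (responses between sexes in labelled KO, and between genotypes in females). With 10 or more counts in every library, the sexes' responses in labelled KO differed for 2. With calls limited to log2 changes of 1 or more in size, counts were 8 (F WT), 0 (F KO-labelled), 11 and 8 (HDM sexes), 7 (genotypes, HDM females), and 5 and 0 (sexes' responses in WT and labelled KO). Without both F WT libraries numbered 2, chosen after seeing the data, the F WT response held 13.

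Leaving out each library in turn gave 15 to 25 (F WT), 0 to 1 (F KO-labelled), 17 to 24 and 15 to 19 (HDM sexes), 6 to 17 (genotypes, HDM females), 6 to 17, 0 to 4 and 1 to 12 (the first 3 differences between responses) and 0 to 0 in the other comparisons; over the named values, 77 of 276 such refits lost the call. A group left with 1 library was assumed to vary like the others.

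The labels give no batch or animal behind a replicate number, and the correlation of same-numbered deviations ran from -0.164 to 0.483, so the numbers were not taken as pairs. A replicate block gave 27 calls in F WT, 10 in the F KO-labelled response, 6 between genotypes in HDM males, and 15, 5 and 11 in the first 3 differences between responses. A crossed block, chosen after seeing the data, gave 0 in the M KO-labelled response and 0 between naive sexes labelled KO. The cause of each change was not tested. Low counts limit Cldn10, Gjb1, Gjb5, Gjb6 and Dsc3.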
